A study of Homo sapiens with 18 samples.

Results

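The H3K27me3 landscape of MDA-MB-231 cells was described from the deposited list of H3K27me3 peaks. MDA-MB-231 is a long-established cell line of mesenchymal character, derived from triple-negative breast cancer. All peaks on chromosomes 1 to 22 were taken, which were 298852 of the 306484 peaks in the list. The series, made for a study of KDM2B and the variant Polycomb complex ncPRC1.1 in amino acid metabolism, held 18 chromatin immunoprecipitation (ChIP-seq) libraries in 9 groups of 2. The H3K27me3 libraries, and those for H2AK119ub, H3K4me3, MYC, ATF4 and KDM2B, came from parental cells, and H3K27ac came from cells of the same line that carried an empty vector. Both stocks had input libraries. All cells were grown in the same medium, and no treatment was named. Each of the 6 lists analysed covers its target as a whole, so no value below has a replicate error, no difference was tested, and the depth behind the peaks is unknown. The ATF4 libraries were not analysed here.

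H3K27me3 is trimethylation of lysine 27 on histone H3, written by EZH1 or EZH2 in Polycomb repressive complex 2 (PRC2). It spreads over broad domains of silent chromatin, above all at developmental regulators and at genes of other cell lineages. Polycomb repressive complex 1 (PRC1) places ubiquitin on a lysine near the end of histone H2A, giving H2AK119ub, and each mark can recruit the complex that writes the other. Acetylation of the same lysine 27 marks active promoters and enhancers, and a histone tail cannot carry acetylation and trimethylation there together. H3K4me3 marks active or poised promoters.

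The promoters of 5 genes show the range of DNA that the domains did and did not cover. They are shown from 250 bases before to 50 bases after the start of the gene in RefSeq's GRCh38.p14 annotation, 5′ to 3′ on the strand of the gene, with each CG pair in capitals. The share of the 300 bases under H3K27me3 peaks was 100% at the first 4 and 0% at the last. The choice of these 5 was made after their values were seen.
PAX7: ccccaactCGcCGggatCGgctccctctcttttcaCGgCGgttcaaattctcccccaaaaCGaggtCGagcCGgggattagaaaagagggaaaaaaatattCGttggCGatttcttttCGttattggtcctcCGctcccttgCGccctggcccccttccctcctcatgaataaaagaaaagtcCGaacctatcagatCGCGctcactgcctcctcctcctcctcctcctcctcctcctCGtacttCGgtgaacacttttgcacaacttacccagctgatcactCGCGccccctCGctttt
KCNK5: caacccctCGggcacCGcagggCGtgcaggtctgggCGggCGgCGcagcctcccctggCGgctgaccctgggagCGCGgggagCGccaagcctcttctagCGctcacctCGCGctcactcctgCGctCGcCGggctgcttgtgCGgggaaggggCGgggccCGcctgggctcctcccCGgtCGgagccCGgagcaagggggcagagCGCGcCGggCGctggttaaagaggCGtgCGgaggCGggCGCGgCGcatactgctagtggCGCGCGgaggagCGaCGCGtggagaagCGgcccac
KLK3: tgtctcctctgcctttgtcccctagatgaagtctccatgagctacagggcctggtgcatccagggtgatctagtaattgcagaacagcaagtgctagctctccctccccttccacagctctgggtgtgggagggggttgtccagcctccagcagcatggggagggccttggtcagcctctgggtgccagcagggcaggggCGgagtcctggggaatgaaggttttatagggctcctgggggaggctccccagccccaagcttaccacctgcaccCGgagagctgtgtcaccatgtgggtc
KRT5: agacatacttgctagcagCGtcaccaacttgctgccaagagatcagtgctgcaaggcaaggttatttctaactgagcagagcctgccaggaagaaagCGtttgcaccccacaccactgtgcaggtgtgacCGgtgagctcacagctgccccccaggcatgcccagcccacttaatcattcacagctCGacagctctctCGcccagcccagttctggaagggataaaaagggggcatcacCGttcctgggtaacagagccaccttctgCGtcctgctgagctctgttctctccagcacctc
KRT8: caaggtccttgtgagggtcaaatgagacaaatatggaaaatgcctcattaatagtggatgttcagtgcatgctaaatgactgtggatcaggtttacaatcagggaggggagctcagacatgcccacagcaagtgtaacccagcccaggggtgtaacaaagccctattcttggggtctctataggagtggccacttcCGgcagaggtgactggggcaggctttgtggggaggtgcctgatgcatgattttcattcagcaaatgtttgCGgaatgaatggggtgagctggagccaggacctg

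The PAX7 promoter, of a transcription factor of muscle and neural crest precursors, lies at chr1:18630596-18630895 on the plus strand and holds 21 CG pairs. The KCNK5 promoter, of a two-pore potassium channel, lies at chr6:39229426-39229725 on the minus strand and holds 39 CG pairs. The KLK3 promoter, of the serine protease known as prostate-specific antigen, lies at chr19:50854665-50854964 on the plus strand and holds 2 CG pairs. The covered promoters thus ran from CG-rich to CG-poor sequence. The KRT5 promoter, of a basal epithelial keratin, lies at chr12:52520345-52520644 on the minus strand and holds 7 CG pairs. The KRT8 promoter, of a keratin of simple epithelium in the same gene cluster, lies at chr12:52926420-52926719 on the minus strand and holds 2 CG pairs. H2AK119ub covered between 99% and 100% of the first 4 promoters, and H3K4me3 and H3K27ac covered 0%. At KRT8 the marks were reversed, with 100% under H3K4me3, 100% under H3K27ac and 0% under H2AK119ub. Among the 15101 genes with a RefSeq promoter sequence, the median was 22 CG pairs, with quartiles of 8 and 32, and 98.1% of promoters held at least 1. Only 79.6% of all genes had such a sequence, so CG content was not compared between covered and uncovered genes.

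H3K27me3 peaks covered 353.9 Mb, 12.3% of the 2874 Mb that lie up to the last peak of each autosome in any of the lists. The mark came as very many short peaks placed close together. Peak width ran from 180 to 115297 bp, with a median of 525 bp and quartiles of 304 and 1111 bp. The median gap to the next peak was 531 bp, and 68.7% of gaps were 1 kb or less. Closing those gaps left 93443 domains, the largest of 638486 bp. Wide peaks held much of the covered length: the 11801 peaks of at least 5000 bp were 3.95% of the peaks and 31.9% of the covered bp. The fold of a peak, which is the authors' signal at the summit divided by background, ran from 1.10 to 9.17 with a median of 2.69. Of the covered length, 39.4% lay in protein-coding gene records, which took up 42.1% of the autosomal length.

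The widest peak, of 115.3 kb at chr6:40245872-40361168, overlapped no protein-coding record. Next came a peak of 114.9 kb in LINGO1, which encodes a neuronal membrane protein, whose fold was only 2.56. Wide peaks also lay in DSCAML1, for a neuronal adhesion molecule, with 84.9 and 75.4 kb, and over PAX2, for a kidney and eye transcription factor, with 81.3 kb. Their folds were 7.48, 6.93 and 6.91. Others among the 10 widest lay in PHACTR3, CELF4, TRABD2B and EDN3, and they were named after their values were seen.

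Coverage differed by more than 10 times between chromosomes. Chromosome 20 had 33.5% of its length under H3K27me3 peaks, ahead of chromosome 11 with 22.2%, chromosome 17 with 20.6%, chromosome 19 with 17.3% and chromosome 16 with 17.2%. Chromosome 4 had 2.57%, below chromosome 13 with 5.63% and chromosome 6 with 6.76%. Highly covered chromosomes were gene-rich: chromosomes 17, 11 and 16 held 13.9, 9.60 and 9.37 protein-coding genes per Mb. Chromosomes 4 and 13 held 4.02 and 2.94. The order was not exactly that of gene density, since chromosome 19 held 24.1 genes per Mb and chromosome 20 held 8.35. Peaks on chromosome 20 were also wider, with a median of 722 bp against 436 bp on chromosome 4, and their median fold was 2.87 against 2.54. H2AK119ub was high on the same chromosomes, with 17.5% of chromosome 20, 16.2% of chromosome 19 and 16.0% of chromosome 17. The ratio of the H3K27me3 length to the H2AK119ub length was 1.92 on chromosome 20, 1.07 on chromosome 19 and 4.07 on chromosome 18. The lists carry no copy number of the chromosomes, so these values are not adjusted for it and its part in them was not tested.

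**Figure D1:**
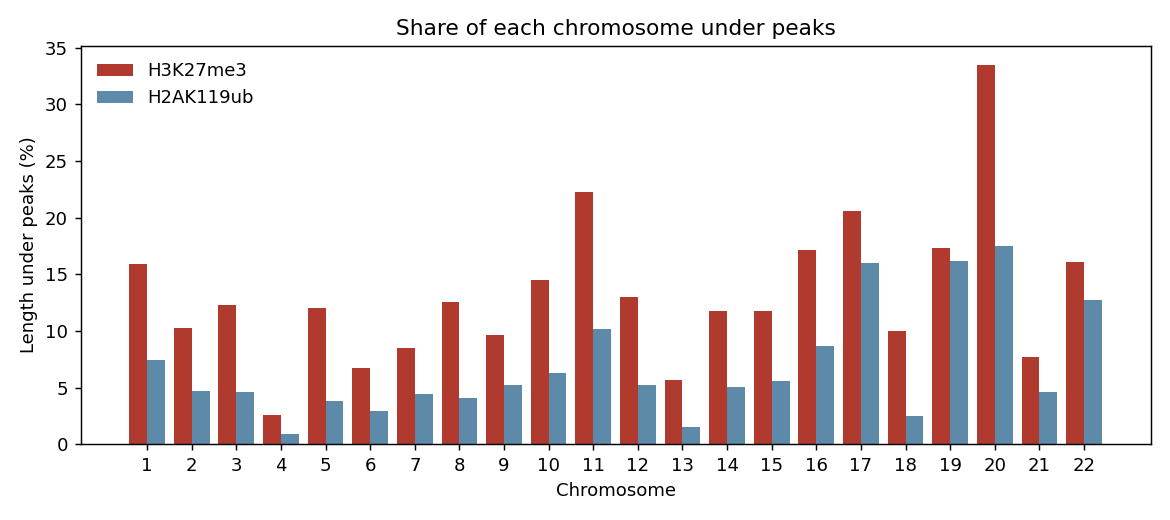
Share of the length of each autosome under H3K27me3 peaks (red) and H2AK119ub peaks (blue), in percent, with the chromosomes on the horizontal axis and 1 value per list and chromosome. Chromosome 20 reached 33.5% and chromosome 4 had 2.57% for H3K27me3.

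At the scale of 1 Mb the mark was concentrated. Of 2777 bins with a peak of any list, 748 (26.9%) held no H3K27me3 and 1174 were under 1% covered. Coverage reached at least 25% in 583 bins, at least 50% in 163 bins (5.87%) and at least 75% in 19 bins. The 343 most covered bins, 12.4% of the bins, held 50% of all covered bp. Chromosome 20 had 16 of its 65 bins at 50% or more (24.6%), chromosome 11 had 19 of 136, and chromosome 4 had 0 of 191. The longest stretch of neighbouring bins at 50% or more was chr20:52000001-58000000, where 69.4% of 6 bins was covered. A stretch of 5 bins at chr11:113000001-118000000 followed, with 60.9% covered.

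**Figure D2:**
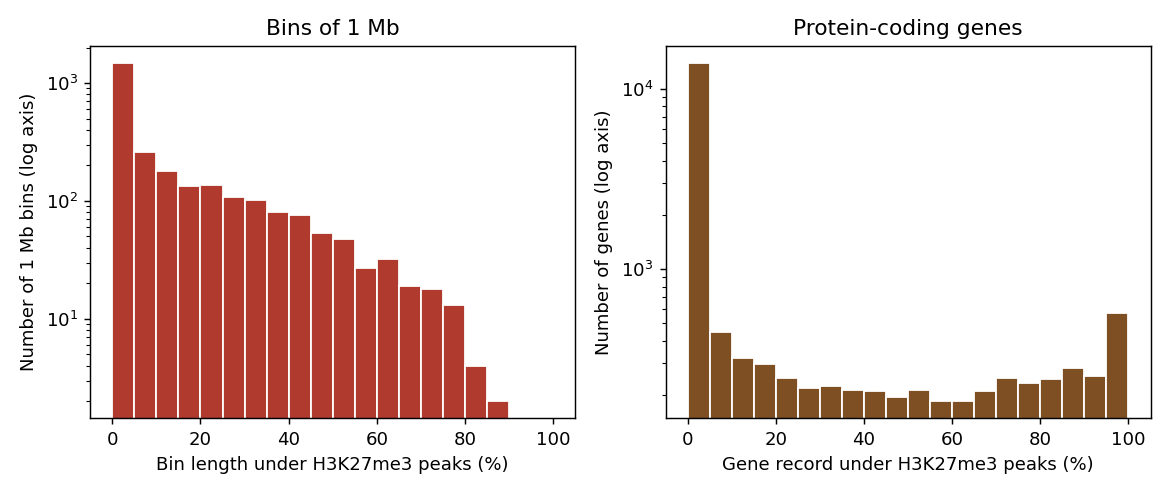
Number of 1 Mb bins (left) and of protein-coding genes (right) by percent of their length under H3K27me3 peaks, on logarithmic vertical axes. Bins thinned out steadily up to 86.5%, whereas genes had a second high class at 95 to 100%, which held 571 genes.

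The most covered bin, chr20:59000001-60000000 with 86.5%, held PHACTR3, a regulator of protein phosphatase 1, ZNF831, the cadherin gene CDH26, SYCP2 of the meiotic synaptonemal complex, and EDN3, a ligand for endothelin receptors in neural crest cells. The adjoining bins chr17:33000001-35000000 had 83.5% covered on average and held ASIC2, a neuronal acid-sensing ion channel, and TMEM132E beside CC chemokine genes. The bins chr6:39000001-41000000 had 82.6% and held the kinesin gene KIF6, the dynein gene DNAH8, the incretin receptor gene GLP1R, KCNK5 and LRFN2, for a synaptic adhesion protein. The bin chr1:18000001-19000000 had 82.2% and held IGSF21, PAX7 and the sweet taste receptor gene TAS1R2. The bin chr20:55000001-56000000 had 77.5% covered, although protein-coding records filled only 0.264% of it. The one gene listed there, CBLN4, was 67.6% covered. Such bins were few: 6 of the 163 bins at 50% or more held the midpoint of no protein-coding gene. Among the 1174 bins under 1% covered, 317 held none. In the bin chr20:39000001-40000000, with 76.6% covered, the record of the helicase gene DHX35 had 0%.

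Bins with much H3K27me3 mostly had H2AK119ub too, but in widely differing amounts. Across the 2777 bins Spearman's rank correlation of H3K27me3 was 0.881 with H2AK119ub, 0.467 with H3K4me3 and 0.332 with H3K27ac. It was 0.480 with MYC, 0.381 with KDM2B and 0.491 with the number of genes. Bins share chromosomes, gene content and libraries, so these are descriptions across bins. The chr20:42000001-43000000 bin, nearly filled by the tyrosine phosphatase gene PTPRT, had 77.2% under H3K27me3 and 13.0% under H2AK119ub. The chr20:57000001-58000000 bin, with the growth factor gene BMP7, had 77.4% under H3K27me3 and 66.8% under H2AK119ub. Median H2AK119ub coverage was 0.034% in bins under 1% covered by H3K27me3 and 20.6% in bins at 50% or more.

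**Figure D3:**
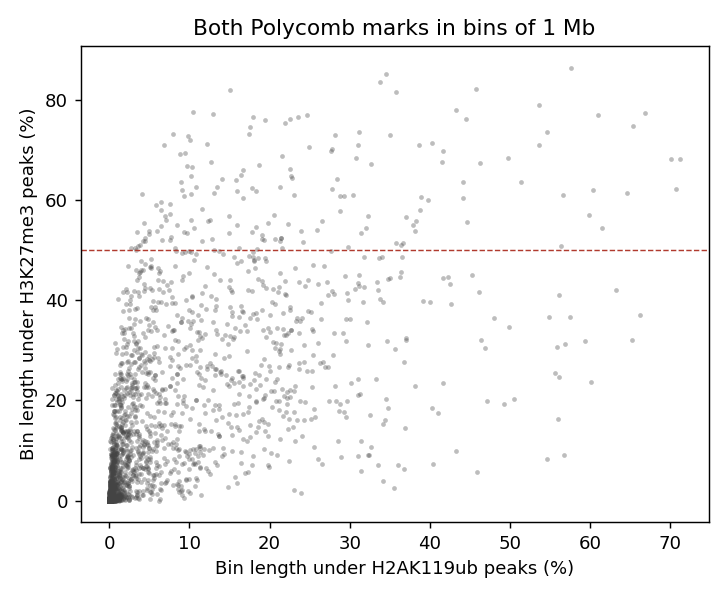
Each point is a 1 Mb bin, with the percent of its length under H2AK119ub peaks on the horizontal axis and under H3K27me3 peaks on the vertical axis, and the dashed line at 50%. Bins above the line ran from low to high H2AK119ub, as the chromosome 20 bins with 13.0% and 66.8% show.

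Of the covered H3K27me3 length, 29.4% lay under H2AK119ub, whose peaks took up 5.83% of the autosomes, and 62.2% of the H2AK119ub length lay under H3K27me3. The other marks and factors were scarce in the domains. H3K27ac covered 0.0886% of the H3K27me3 length against 4.68% of the autosomes, and H3K4me3 covered 1.48% against 4.48%. For MYC these shares were 0.331% and 1.62%, and for KDM2B 0.0909% and 0.382%. The overlap with H2AK119ub grew with peak width, from 8.39% of the bp in the narrowest of 5 equal classes of peaks to 37.98% in the widest. Between these classes the H3K27ac share went from 0.329% to 0.0373%. H3K27ac came from the empty-vector stock, so its separation from H3K27me3 compares 2 stocks of the line.

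Most genes held none of the mark. Of 18973 protein-coding gene records, 12970 (68.4%) held no H3K27me3, 2635 (13.9%) were covered over at least 50%, 1355 (7.14%) over at least 80% and 571 (3.01%) over at least 95%. Another 3212 genes were between 10% and 80% covered. Genes at 80% or more are called covered from here on. Of these, 375 lay wholly inside 1 peak. The median covered gene was 9.65 kb long and held 3 peaks, while the median of the others was 26.5 kb. H2AK119ub lay in 95.4% of the covered genes, H3K4me3 in 25.8% and H3K27ac in 7.53%. In genes with no H3K27me3 these shares were 44.5%, 88.0% and 86.6%.

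Within the covered records, 50.8% of the H3K27me3 bp lay under H2AK119ub. The 5.62 Mb of those records left uncovered held 4.29% H3K27ac and 5.35% H3K4me3, whereas the H3K27me3 bp beside them held 0.0718% and 1.37%. The uncovered stretches of covered genes were thus close to the autosomal shares of these marks, 4.68% and 4.48%.

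Short genes were covered more often. In the shortest of 10 classes of record length, up to 3.23 kb, 18.1% of genes were covered, against 3.27% in the ninth class and 4.11% in the longest. By length, 21.9% of the bp in the shortest class and 11.9% in the longest lay under the mark. The domains ran on past the genes: the first 1 kb outside a covered record was 78.8% covered on average, and the zone from 100 to 200 kb away was still 43.1% covered. For all genes these means were 12.7% and 17.8%. Both 1 kb flanks were at least 50% covered for 949 covered genes (70.0%), and neither was for 73.

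**Figure D4:**
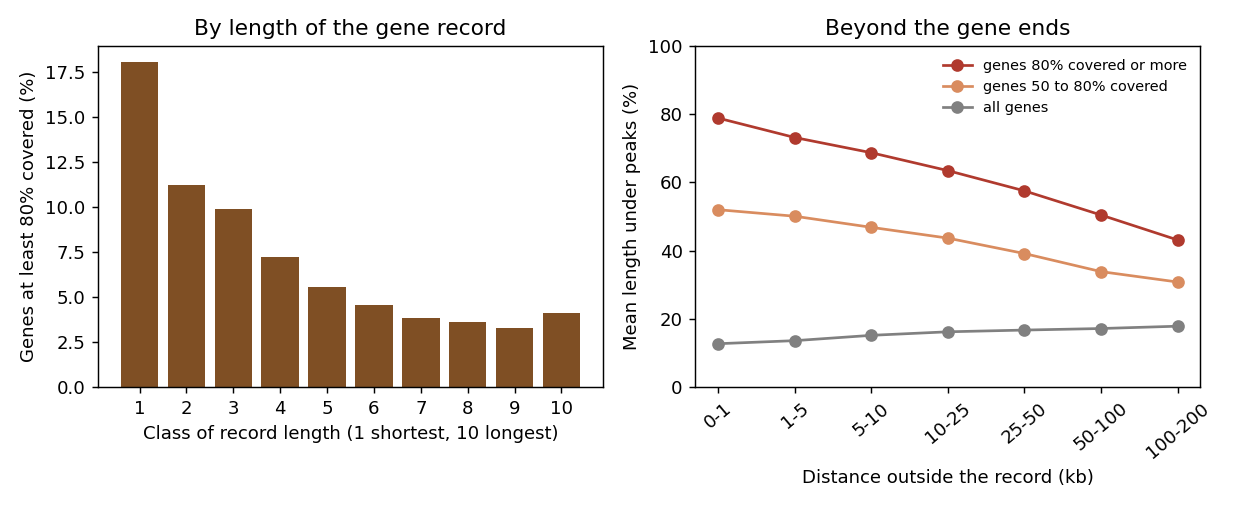
Left, percent of genes at least 80% covered in 10 equal classes of record length. Right, mean percent under H3K27me3 peaks in zones at rising distance outside the record, for covered genes (red), genes 50 to 80% covered (orange) and all genes (grey); the red line fell from 78.8% to 43.1%.

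Some of the largest genes in the genome were nonetheless covered nearly end to end. There were 123 covered genes over 100 kb and 37 over 300 kb. ASIC2 was the longest, with 81.4% of 1143682 bp under 416 peaks. CACNA1C, the pore subunit of the cardiac and neuronal L-type calcium channel, was 89.0% covered over 727171 bp, with a highest fold of 8.18. ALK, a receptor tyrosine kinase of the developing nervous system, was 81.1% covered over 728813 bp. FSTL4, a follistatin-like gene of 645613 bp, was 89.7% covered and held the highest fold of any gene record, 8.98. The rest of the 10 longest were KALRN, a guanine nucleotide exchange factor of synapses, at 87.5%, CSMD2 at 84.5%, CLSTN2 of synapses at 80.7%, the axon guidance ligand gene SLIT3 at 81.0%, the neuronal splicing factor gene RBFOX3 at 88.7% and the kinesin gene KIF26B at 82.8%. Most of these 10 have known roles in nerve cells. They were taken for their length, and the roles of uncovered genes of like length were not compared. H2AK119ub covered 82.9% of RBFOX3 but 14.4% of ASIC2, so covered giants differed in the PRC1 mark.

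After FSTL4, high folds lay in MPPED1 with 8.76 and KALRN with 8.54, and then in POTEJ with 8.23 and GOLGA8S with 8.22. POTEJ and GOLGA8S belong to families of near-identical copies, so their values are uncertain. PKNOX2, a TALE homeobox gene, IGSF21 and NFASC, for a protein of the axon initial segment, had folds between 8.06 and 8.15 and were 92.8% to 97.2% covered. MYO1D had a fold of 8.17 with 59.2% of its record covered.

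Bins with high coverage still held genes with H3K4me3 and H3K27ac and without H3K27me3. The 163 bins at 50% or more held 1214 genes, of which 415 (34.2%) were covered and 431 (35.5%) had no H3K27me3 at all. Of those 431 genes, 95.1% had H3K4me3, 93.0% H3K27ac and 94.0% MYC somewhere in the record. Among all genes with no H3K27me3 these shares were 88.0%, 86.6% and 84.6%. The lists do not measure expression. Of the 415 covered genes in the same bins, 29.4% had H3K4me3 and 9.16% H3K27ac. In the bins under 1% covered, 4 of 3696 genes were covered. Bins and genes were sorted by the same peaks, so dense and sparse bins had to differ in their share of covered genes.

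Covered genes often stood side by side. Of all covered genes, 62.6% stood next to another covered gene along the chromosome. Overlapping records count as neighbours here, and no expected share was computed. Covered genes formed 771 runs without an uncovered gene between them, of which 507 were single genes. Among the runs, 46 had 5 or more genes (314 genes) and 5 had 10 or more (73 genes). The longest run had 21 genes, all keratins from KRT83 to KRT78, at chr12:52314301-52848994, with 89.7% of the stretch covered. The next had 16 genes from KLK1 to KLK14 at chr19:50819146-51084210, with 88.6%. Then came 2 stretches of the epidermal differentiation complex: 14 genes from LCE1C to SPRR2A at chr1:152804832-153057512, with 85.4%, and 11 genes from SPRR2G to S100A7 at chr1:153149582-153460651, with 89.4%. A run of 11 genes from OR6X1 to OR10G8 lay at chr11:123753580-124030634, with 77.0%. Runs of 9 genes held the BPIF genes of airway and salivary defence proteins on chromosome 20, with 93.2%, and CEACAM genes on chromosome 19, with 89.5%. Genes that end a run were named for their place in it, after their values were seen.

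Gene families were defined by symbol pattern, 77 in all with 2672 genes, of which 431 were covered. Among all 18973 genes 7.14% were covered, and among records of up to 3.23 kb 18.1%. Family counts are not adjusted for record length. Its median was 1.26 kb for late cornified envelope genes, 3.08 kb for olfactory receptors and 24.4 kb for Fc receptor-like genes. In 10 families at least 50% of members were covered, in 28 the median member had 0%, and in 18 no member was covered. By known role, these 10 families belong to epithelial barriers or to immune cells and defence. Other families with such roles had few or no covered members, such as 0 of 22 claudins, 0 of 8 Toll-like receptors, 0 of 6 MHC class I genes and 3 of 31 C-type lectins.

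Among proteins of the epidermal barrier, 15 of 19 late cornified envelope genes were covered, with a median of 100%. LCE1F, LCE1C and LCE2C were 100% covered, while LCE2A had 79.1%, LCE3C 69.1%, LCE1D 57.9% and LCE5A 0%. Of the small proline-rich genes, whose products are cross-linked into the cornified envelope, 9 of 11 were covered, among them SPRR4, SPRR3 and SPRR1A at 100%. SPRR2F had 77.4% and SPRR2B 73.9%. Of the kallikreins, secreted serine proteases of skin and glands, 15 of 16 matched genes were covered, with KLK2, KLK14 and KLK12 at 100%. The exception, KLKB1 with 0%, is plasma prekallikrein of chromosome 4 and shares the symbol pattern only.

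Keratins, the intermediate filament proteins of epithelia, were split by place. On chromosome 12, 21 of 27 were covered with a median of 97.6%, and on chromosome 17, 9 of 28 with a median of 51.4%. On chromosome 12 the covered block held KRT71, KRT76 and KRT74 at 100%, KRT5 at 100% and 17 others. The 6 uncovered members stood at its edges. KRT80, KRT7, KRT81, KRT8 and KRT18 had 0% under H3K27me3, and KRT86 had 1.64%. H3K27ac covered 48.8% of KRT8 and 100% of KRT18, the keratin pair of simple epithelia. On chromosome 17, KRT14, KRT16 and KRT17 of basal and wounded epidermis were between 99.9% and 100% covered, while their neighbour KRT19 of simple epithelium had 0% under H3K27me3 and 100% under H3K27ac. The genes of the uncovered edge and of the chromosome 17 comparison were chosen after their values were seen.

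Among genes of immune cells, all 8 CD300 receptor genes of myeloid cells were covered, from 87.5% to 100%, with CD300LG, CD300E and CD300LB at 100%. Of the CC chemokine genes, whose products attract leukocytes, 18 of 26 were covered. CCL15, CCL14 and CCL13 on chromosome 17 were 100% covered. CCL20, which attracts Th17 cells, had 0% under H3K27me3, 66.7% under H3K4me3 and 94.2% under H3K27ac, and CCL24 had 0% with 15.1% under H3K27ac. Of 14 CXC chemokine genes, 1 was covered (7.14%), which is the share among all genes (7.14%). Of the Fc receptor-like genes of B cells, 5 of 8 were covered, with FCRL5 at 92.5%, FCRL4 at 91.2% and FCRL2 at 89.7%. FCRLA had 48.6%, FCRL6 46.3% and FCRLB 0%, the last with 100% under H3K4me3. Of the leukocyte immunoglobulin-like receptor genes 6 of 10 were covered, led by LILRB2 with 94.6%, LILRB4 with 91.7% and LILRA4 with 88.9%. LILRB3 had the least, 26.0%. Among the alpha defensins, antimicrobial peptides of neutrophils and Paneth cells, 4 of 6 were covered, with DEFA4, DEFA1 and DEFA6 at 100%. The CEACAM genes, adhesion proteins of epithelia and granulocytes, had 7 of 12 covered, with CEACAM4 at 98.4%, CEACAM5 at 97.4% and CEACAM3 at 97.3%. CEACAM19 had 0% with 37.1% under H3K27ac. Copies of the LILR, alpha defensin and chemokine genes are near-identical in places, which makes single values there uncertain.

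**Figure D5:**
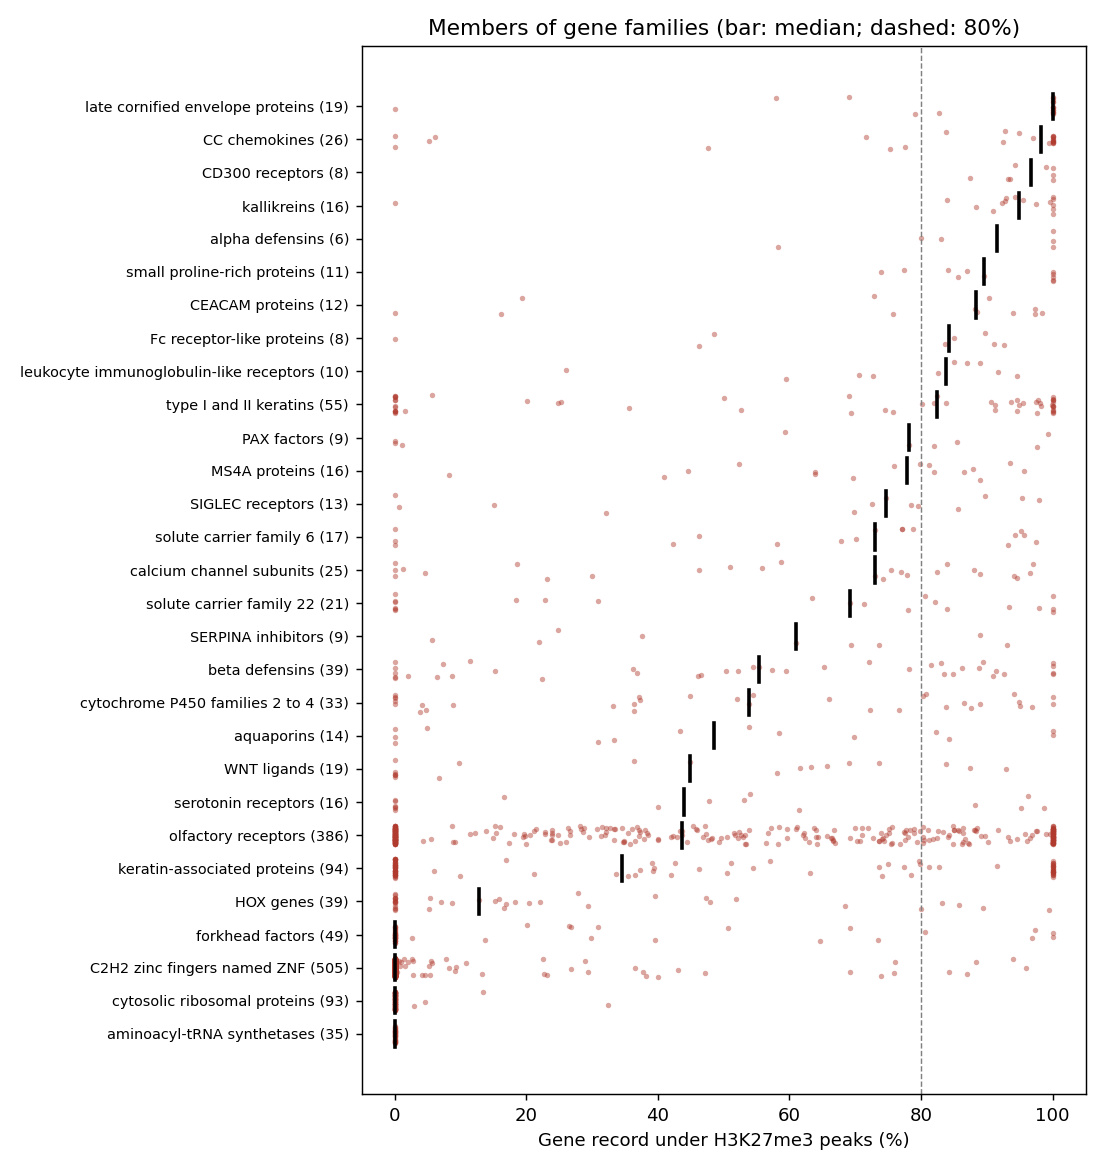
Percent of each member's record under H3K27me3 peaks in a selection of the 77 families, with the number of members in brackets, 1 point per gene, a bar at the median and a dashed line at 80%. Medians ran from 100% for the late cornified envelope genes to 0% for aminoacyl-tRNA synthetases, and olfactory receptors spread over the whole range.

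Families of transporters, channels and developmental regulators were covered in part. Of the PAX transcription factors 4 of 9 were covered: PAX2 at 99.3%, PAX7 at 97.6%, PAX5 at 85.5% and PAX1 at 81.9%. PAX4 had 78.2%, PAX6 59.3%, PAX9 1.18%, and PAX3 and PAX8 0%. Calcium channel subunits had 8 of 25 covered, among them CACNA1S at 97.0%, CACNA2D2 at 96.5% and CACNA1D at 94.7%. Potassium channels had 21 of 94, with KCNK16 and KCNA10 at 100%. The solute carrier family 6 of neurotransmitter transporters had 5 of 17, with the glycine transporter gene SLC6A5 at 95.7%. The solute carrier family 22 of organic ion transporters had 8 of 21, with SLC22A7, SLC22A6 and SLC22A17 at 100%. Cytochrome P450 families 2 to 4 had 12 of 33, with CYP2A6 and CYP2A7 at 100% and CYP2A13 at 96.8%. Among GATA factors, GATA5 was 90.8% and GATA4 83.5% covered, while GATA2, GATA3 and GATA6 had 0%, with H3K27ac over 76.1%, 44.9% and 33.8% of their records.

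The HOX genes, known as Polycomb targets in many cell types, were covered less than the barrier families. Covered were 5 of 39, with a median of 12.9%: HOXB13 at 99.5%, HOXC12 at 89.4%, HOXC13 at 85.7%, HOXC11 at 83.2% and HOXD12 at 80.04%. The HOXC cluster had 53.2% of its span under H3K27me3 and 35.7% under H2AK119ub. All covered HOX genes belonged to paralogue groups at the posterior end of their clusters.

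Olfactory receptors, odorant receptors used in sensory neurons of the nose, ranged from fully covered to bare clusters. Of 386 genes, 113 were covered and 121 had none. The 22 receptors from OR6X1 to OR8A1 at chr11:123753580-124571374 had 77.9% of their span covered, with 18 genes covered, OR8B8, OR10D3 and OR10G8 at 100%. The 43 receptors from OR2B11 to OR14I1 at chr1:247449118-248702766 had 0.0932% covered, with 0 genes covered. H2AK119ub covered 17.9% of the first span and 0.0862% of the second. Between them lay the 55 receptors from OR52B4 to OR52W1 on chromosome 11, with 37.2%. By chromosome, 63 of 168 receptor genes were covered on chromosome 11, 8 of 13 on chromosome 17, 8 of 61 on chromosome 1 and 0 of 10 on chromosome 3. The keratin-associated proteins of hair differed in the same way, with 9 of 11 covered on chromosome 11, 14 of 49 on chromosome 21 and 3 of 34 on chromosome 17.

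Families used by every cell were nearly free of the mark. No cytosolic ribosomal, mitochondrial ribosomal, proteasome, complex I or aminoacyl-tRNA synthetase gene was covered, and all 35 synthetase genes had 0%. Of 505 zinc finger genes named ZNF, 461 had 0% and 5 were covered, among them ZNF831 at 95.9% and ZNF423 at 94.1%. Some families without the mark lacked the other marks as well. All 17 type I interferon genes had no peak of any of the lists, and so had 20 of 24 bitter taste receptor genes. DNA missing from the cells and DNA without any of these marks cannot be told apart in peak lists.

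From first to last member, 16 of 144 clusters of neighbouring family members were at least 80% covered, 43 at least 50%, and 23 had none. The most covered were the potassium channel genes KCNK5 to KCNK16 at chr6:39188971-39322968 with 97.8%, the CD300 genes at chr17:74466373-74712923 with 93.2%, and the KRTAP5 hair protein genes at chr11:1584342-1697755 with 90.7%. Both KRTAP5 clusters of chromosome 11 were among the 4 most covered, the other with 90.0%. The alpha defensin cluster had 89.9%, CEACAM 89.3%, the kallikreins 88.6% and CCL5 to CCL4L2 88.1%. H2AK119ub covered 57.6% of the KCNK5 cluster, 56.8% of the CD300 cluster and 47.9% of the kallikreins, but 27.6% of the chemokine cluster. The whole chromosome 12 keratin cluster, edges included, had 63.9%.

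Few genes were covered on chromosomes 4, 13 and 18, the last with 7 of 268. Chromosome 4 had 4 covered genes of 764: HELT, for a neural transcription factor, at 100%, and LOC124900837, LOC105374355 and LOC128125818, between 81.9% and 84.7%. Chromosome 13 had 7 of 336, of which GSX1, PDX1 and CDX2 are homeobox genes of brain, pancreas and gut that lie between 27792483 and 27969315 on that chromosome. They were 100%, 88.8% and 89.7% covered, and 66.8% of the stretch from GSX1 to CDX2 was covered.

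Markers of several cell types were read. The mesenchymal and basal-like genes on autosomes, VIM, CD44, AXL, CAV1, FN1, EGFR and ZEB1, all had 0% under H3K27me3. H3K27ac covered from 4.01% of ZEB1 to 69.9% of EGFR and 79.3% of VIM. Luminal genes were mostly not covered: ESR1, PGR, GATA3, FOXA1 and EPCAM had 0%, CDH1 had 0.549% and ERBB3 5.87%, whereas TFF1, a secreted mucosal peptide, had 87.6%. H3K27ac covered from 0% of PGR and TFF1 to 44.9% of GATA3 and 86.7% of FOXA1, so it did not separate the luminal from the mesenchymal genes. The haematopoietic genes CD3E and SPI1 had 84.1% and 23.6%, and PTPRC had 0%. Of the neuronal genes, RBFOX3 had 88.7%, and SNAP25 and NEUROD1 had 0%. Of the hepatic genes, APOB had 93.2%, HNF4A 89.3% and ALB, on chromosome 4, 0%. Genes of other lineages thus had anything from 0% to 93.2%, while the line's own mesenchymal genes all had 0%. However, 68.4% of all genes had 0%, as did most of the luminal genes, so a value of 0% does not identify the cell type. Of the listed markers, MSN and SYP lie on chromosome X and were outside the set.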

How the data were processed

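Sample titles gave the target and cell stock of each library. Whether paired libraries are separate cultures is not stated in the labels. Per the labels' protocols, chromatin was digested enzymatically. Trim Galore, Bowtie2 2.4.5, SAMtools 1.6, MACS2 2.2.7.1 and build hg38 are named in the submitters' processing notes. The control used and how the libraries of a target were combined are not given in the sources used here. The deposited lists give each peak's fold, a ratio of signal over background by the authors' peak caller, and its −log10 q-value, of which the highest deposited q was 0.0499. Both served only to describe or filter peaks within a list. Narrow-peak calling of a broad mark can split a domain into many peaks. The lists hold no read counts, so the depth and the precision it gives are unknown.

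Peaks of each list were merged and intersected at 1 bp with bins of 1 Mb and with 18973 protein-coding gene records of RefSeq GRCh38.p14, after 153 records on scaffolds were left out. No genome sequence was used here, so the length of a chromosome is the last peak end of any list. A gene was called covered at 80% of its record. Families were matched by symbol pattern, which also takes in a few unrelated genes, and members up to 500 kb apart formed a cluster (3 or more). Named genes were, per family, up to 3 covered members with the highest coverage and all members not covered where 5 or fewer; the 10 longest covered records; the 10 genes of highest fold; up to 5 genes in each of the 10 most covered bins; and all markers. Other names were chosen after their values were seen. A few genes under this rule are not reported here. The members and lists were chosen with earlier results of these data known. No test was run, since the list carries no replicate values. The coverage code was tested on simulated intervals. Alternatives were stricter peak filters, closed gaps of 1 kb, other thresholds, bins of 500 kb, 5 kb flanks and overlap rules. Python 3.11.15, numpy 2.4.6, pandas 2.3.3, scipy 1.17.1 and matplotlib 3.10.9 were used.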

Additional observations from a re-analysis of the deposited data

Results flagged for a closer look

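The comparisons used autosomes, and the H3K27me3 list also held peaks outside them. On chromosome X it held 7613 peaks, which covered 4.81 Mb or 3.08% of the chromosome, less than the share of any autosome except chromosome 4 (2.57%). Median peak width there was 376 bp and median fold 2.54. On chromosome Y it held 19 peaks of 0.00547 Mb in all, whose median width was 242 bp. There is no control list to set beside these values.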

How the results depend on the processing

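No paired analysis was possible because each list does not resolve its 2 libraries, and no library could be left out for the same reason. Keeping peaks with q under 1e-5, the 50% of highest fold or those of at least 500 bp gave 10.1%, 9.85% and 10.8% of the autosomes, between 116 and 125 bins, 1205, 1143 and 1249 covered genes, 11, 10 and 11 clusters, and 33.2%, 32.8% and 32.2% of the H3K27me3 length under H2AK119ub. The same 10 families stayed at 50% of members or more under each of these. Closing gaps of up to 1 kb gave 15.3% of the autosomes, 268 bins, 2087 genes, 15 families and 25 clusters, and added the DLX, MS4A, PAX, SIGLEC and SLC22 families. Against the length of bins with any peak, an alternative chosen after seeing the data, coverage was 12.8%. A bin threshold of 25% gave 583 bins, and bins of 500 kb gave 430. Thresholds of 50% and 95% of a record or span gave 2635 and 571 genes, 21 and 5 families, and 43 and 1 clusters. Counted by peaks, 28.9% touched H2AK119ub and 13.8% were overlapped over at least 50%. The remaining alternatives, 5 kb flanks (968 genes), 1 gene per set of overlapping records (1234 genes, chosen after seeing the data; 10 families), families of 10 or more members (7) and clusters joined within 100 kb (18), stayed within 1.5 times. Counts of covered genes and dense bins thus depend on thresholds and on closing gaps. The depth that limits narrow or weak peaks is unknown.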
